A study of Mus musculus with 2 samples.

Results

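The 37 genes of the mouse mitochondrial genome were examined in RNA from the nucleoplasm of macrophages. The members were all annotated genes whose symbol starts with mt-, 37 of 55536. By class they are 13 mRNA genes, 2 ribosomal RNA (rRNA) genes and 22 transfer RNA (tRNA) genes. All lie on chromosome M of mm10 between positions 1 and 15422, with 28 on the plus strand and 9 on the minus strand of the annotation.

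The cells were primary bone marrow-derived macrophages of the strain C57BL/6J, treated with Lipid A at 100 ng/ml for 30 min, and the libraries were made from total RNA after ribosomal RNA depletion. There was 1 group with 2 libraries, replicates 1 and 2, started from 1 µg and 500 ng of RNA. Both cite the same donor entry, and the labels name the fraction as nucleoplasmic in one field and nuclear in others. Detection meant a TPM, the deposited level per length, of 1 or more in each library, and all 10 macrophage marker genes checked were detected. An untreated sample was not analysed here, so nothing below is a response to Lipid A. With n = 2, ratios compare libraries and carry no p-value. The replicates are called biological, but separate cultures are not described, so the spread between them may be technical.

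The mitochondrial genome is a small circle in the mitochondrial matrix, outside the nucleus. It is transcribed from promoters of the heavy and light strands into long precursors, from which tRNAs are cut out, releasing most of the mRNAs and rRNAs that lie between them. The plus-strand genes come from the heavy-strand promoters. The light-strand promoter gives mt-Nd6 and the minus-strand tRNAs. The mRNAs encode core subunits of the respiratory chain and of ATP synthase, the rRNAs belong to the mitochondrial ribosome, and the tRNAs decode its own genetic code. The nuclear genome also holds inserted copies of mitochondrial DNA, which share its sequence.

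Several members overlap or are copied so closely that a read cannot be assigned to 1 gene by sequence. Of the 37 genes, 9 pairs overlap by at least 1 base, and the widest overlap is the 43 bases shared by mt-Atp8 and mt-Atp6, from 7927 to 7969. The mRNA ends below show it, taken from the GENCODE M21 transcripts (mm10, plus strand, chrM:7907-7969 and chrM:7927-7989). The shared bases are in capitals, and the ATG that opens them is the start of mt-Atp6.
mt-Atp8 end: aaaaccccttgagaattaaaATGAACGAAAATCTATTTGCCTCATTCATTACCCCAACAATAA
mt-Atp6 start: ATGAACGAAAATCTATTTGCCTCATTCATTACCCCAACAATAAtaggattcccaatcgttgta

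A block on chromosome 1 carries 6 annotated pseudogenes, on the minus strand from 24611535 to 24615565, that copy 6 of the mitochondrial mRNA genes. In genome order of the members they are Gm28661 (copy of mt-Co2), Gm10925 (mt-Atp6), Gm28437 (mt-Co3), Gm28438 (mt-Nd3), Gm10222 (mt-Nd4l) and Gm28439 (mt-Nd4). Of the 6, 5 are 100% identical to the member over their whole length. Gm28439 covers the first 876 bases of mt-Nd4, 63.6% of it, and the other copies cover 99.0% to 99.9% of their member. The first 60 bases of mt-Co2 (chrM:7013-7072, plus strand) and of Gm28661 (chr1:24615506-24615565, minus strand) are shown because Gm28661 held the most expected counts of all the copies. They are the same letters.
mt-Co2 start: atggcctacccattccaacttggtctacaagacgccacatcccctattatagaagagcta
Gm28661 start: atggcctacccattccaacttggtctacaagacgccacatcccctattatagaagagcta

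The exception is Gm28438, which differs from mt-Nd3 by the single substitution T3C, counted from 1 at the 5′ end of mt-Nd3. Its position falls in the start codon. The first 28 bases of mt-Nd3 (chrM:9459-9486, plus strand) and of Gm28438 (chr1:24613092-24613119, minus strand) are printed with that base in capitals. It is the 1 letter that separates a member from its copy among the copies named above.
mt-Nd3 at T3C: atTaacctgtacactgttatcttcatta
Gm28438 at T3C: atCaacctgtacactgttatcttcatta

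The 37 genes took 2.18% of the expected counts of annotated genes in replicate 1 (2.18 to 2.19, a 95% Wilson interval that covers counting error only). In replicate 2 they took 6.14% (6.13 to 6.16), which gives a mean of 4.16% ± 2.80 (SD, n = 2). The share in replicate 2 was above that in replicate 1, and the counting intervals did not overlap. In bulk RNA, more mitochondria in the fraction and more RNA per mitochondrion cannot be told apart, nor can the starting amount of RNA and the library. Nearly all of it was mRNA in these rRNA-depleted libraries, with 330617 and 904900 expected counts. The rRNAs had 15484 and 9046, and the tRNAs had 0 in both gene tables. Of 37 members, 15 were detected, all 13 mRNAs and both rRNAs, against 20.7% of all annotated genes.

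Adding the 9 nuclear copies listed for the members brought the totals to 419950 and 1172856 expected counts, or 2.65% and 7.88% of the libraries. Reads on copies were 17.6% and 22.1% of members plus copies in replicates 1 and 2. A second set of transcript tables, which the authors derived from the reads directly, put 8.18% and 12.1% on copies. Of the 9, 3 had a mean under 50 counts and are named after their values were seen. They were Gm29216, with 0 and 88.1 counts, and the chromosome 2 copies Gm13340 and Gm13341, with 2.02 and 32.1, and 1.01 and 30.4. Gm29216 copies part of mt-Co1 with 1 mismatch and lies next to the chromosome 1 block, from 24615706 to 24616197.

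The deposited gene tables gave the copies most of the reads of mt-Co2, mt-Atp6 and mt-Co3. Subunit 2 of cytochrome c oxidase, mt-Co2, had 544 and 1395 expected counts itself, while Gm28661 had 23802 and 70506, and all copies of mt-Co2 together held 97.8% and 98.1% of its reads. In the second transcript tables mt-Co2 had 12797 and 12513 estimated counts and Gm28661 had 14200 and 87799, with 52.6% and 87.5% on copies. The split of these reads differed between tables, and in the second tables it also differed between libraries.

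The ATP synthase subunit gene mt-Atp6 had 777 and 4370 expected counts, and its copy Gm10925 had 12397 and 69538, or 94.1% of the pair in both libraries. The second tables reversed this split, with 14440 and 106061 estimated counts on mt-Atp6 and 239 and 0.323 on Gm10925. For mt-Co3, another cytochrome c oxidase subunit, the gene tables gave 1890 and 3466 to the member and 15955 and 50786 to Gm28437. The second tables put 1.00% of that pair on the copy in replicate 1 and 35.8% in replicate 2. The complex I genes mt-Nd3, mt-Nd4l and mt-Nd4 had 77.5% and 66.6%, 57.1% and 81.3%, and 46.3% and 33.5% on their copies in the gene tables. Since the tables split these reads differently, the levels and ratios of these 6 mRNAs are given below with member and copies added, and the ratios alone as well.

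**Figure D1:**
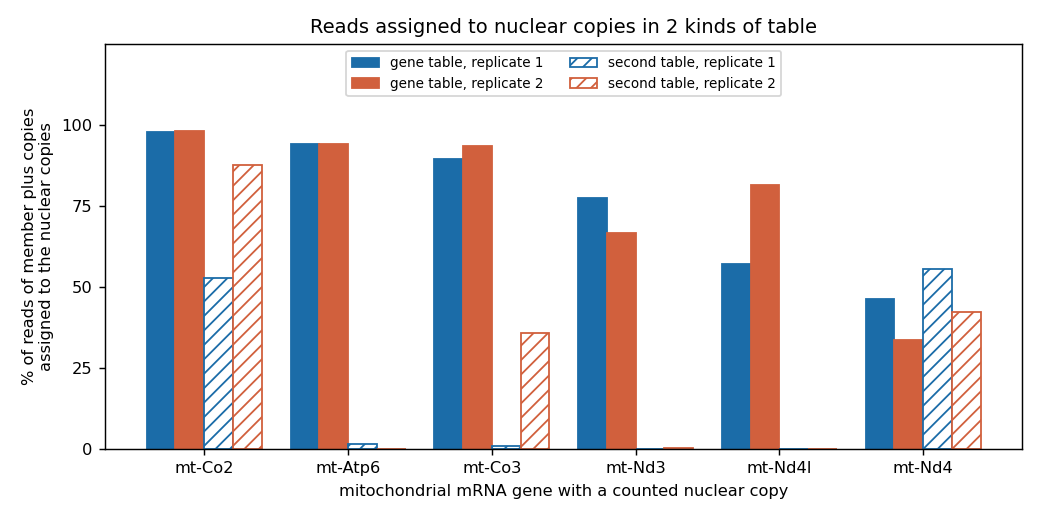
Bars give the percent of reads of a mitochondrial mRNA plus its nuclear copies that each table assigned to the copies. Shown are the 6 mRNAs with a copy averaging 50 expected counts or more. Filled bars are gene tables and hatched bars second transcript tables, with 1 bar per library and no error bar. For mt-Atp6 the gene tables stand at 94.1% in both libraries and the second tables near 0.

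Deposited TPM bounds did not contain the deposited TPM for most of these mRNAs. In both libraries 11 of 13 mRNAs had a TPM outside its bounds, 8 above and 3 below. Of all genes averaging 50 counts or more, 11.8% lay outside in replicate 1 and 8.98% in replicate 2. Most of those genes have fewer counts than the mRNAs, and a share at matched counts was not computed. The 3 below were mt-Co2, mt-Atp6 and mt-Co3. For mt-Co3 in replicate 1 the TPM was 199, with bounds from 549 to 1008, and in replicate 2 it was 287, with bounds from 1224 to 2061. The level of these bounds is not stated in the files. The posterior mean TPM lay at a median of 0.952 and 0.965 times the TPM over the 2533 genes averaging 1000 counts or more.

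Levels per length were compared in CPM per kilobase, which is the expected count of member and copies scaled to library size and divided by annotated length. By this measure mt-Co1, the catalytic subunit of cytochrome c oxidase, was highest in both libraries, at 6282 and 16373, with 153788 and 376158 expected counts on the gene itself. Next by mean were mt-Co2 at 2246 and 7070, mt-Nd4 at 1763 and 7058, mt-Nd6 at 3682 and 4933, and mt-Atp6 at 1221 and 7296. Below them stood mt-Nd1 at 1270 and 6229, mt-Nd5 at 2433 and 5013, mt-Cytb at 1158 and 5678, and mt-Co3 at 1436 and 4652. The lowest mRNAs by this measure were mt-Nd4l at 946 and 4255, mt-Atp8 at 279 and 3956, mt-Nd2 at 543 and 3000.3, and mt-Nd3 at 307 and 1204. Deposited effective lengths are shorter than annotated ones, and by a larger proportion in short genes. For mt-Nd4l they were 79.5 and 97.7 of 297 bases, and for mt-Nd3 124 and 145 of 348. Short genes therefore rank lower here than by TPM. With copies added, the mean TPM of mt-Nd4l was 6381, and that of mt-Nd3 was 1449.

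Both rRNAs stood below the mRNAs by mean level, mt-Rnr1 at 449 and 372 and mt-Rnr2 at 347 and 160. In replicate 1, however, mt-Atp8 and mt-Nd3 were lower than either. The libraries were depleted of rRNA, and the part of depletion in these rRNA levels was not tested. Between neighbours in this order of 15 genes, 13 of 14 pairs had ranges that overlapped, with all 13 mRNAs higher in replicate 2. Within libraries, 6 of the 14 pairs stood in the same order in both, so the order of the other 8 differed between libraries. The rank of mt-Nd6 was 2 in replicate 1 and 8 in replicate 2, and that of mt-Atp6 was 8 and 2.

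**Figure D2:**
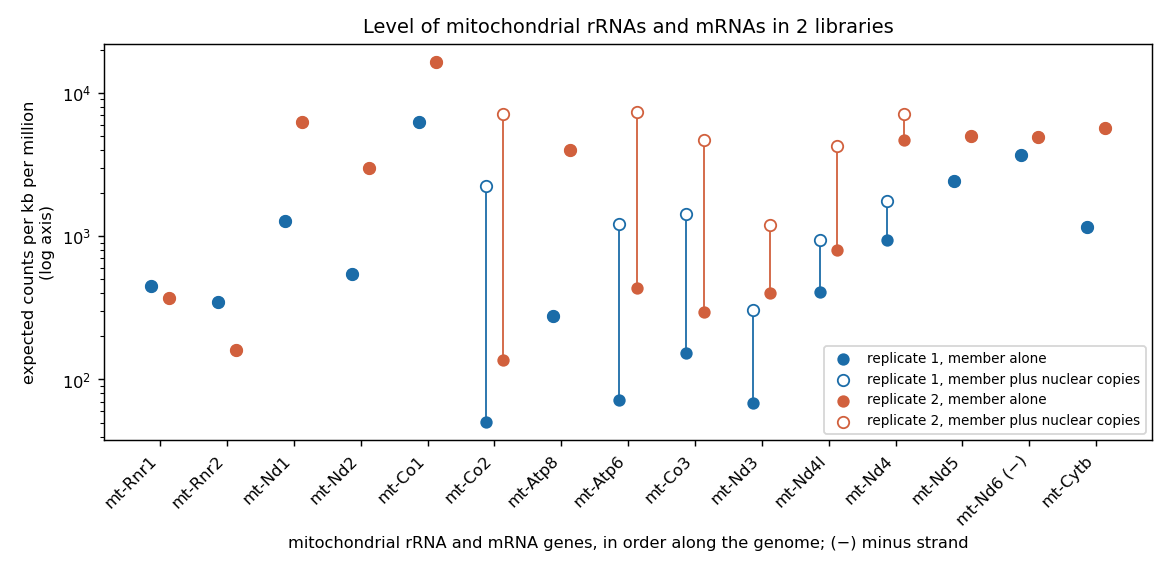
Levels of the 2 rRNAs and 13 mRNAs in order along the mitochondrial genome, in CPM per kilobase on a log axis; filled points are the member alone and open points the member plus its nuclear copies, 1 point per library. The open points lift mt-Co2 in replicate 1 from 50.2 to 2246, and mt-Co1 is highest in both libraries.

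By mean TPM of the members alone, mt-Atp8, mt-Co1 and mt-Nd6 led, at 11741 ± 12780, 10143 ± 4689 and 5956 ± 202 (SD, n = 2), and mt-Co2 was lowest of the 15 at 105 ± 49.3. By posterior mean TPM, however, mt-Co2 stood at 557 ± 306, above mt-Rnr1 at 416 and mt-Rnr2 at 238, and in the second tables at 492 ± 174. For mt-Atp8, a short subunit gene of ATP synthase with 204 annotated bases, TPM gave another order. Its 902 and 12005 expected counts stood at 2704 and 20778 TPM, with deposited effective lengths of 19.5 and 27.7 bases. In replicate 2 that was the highest TPM of the 37 members, above mt-Co1 at 13459. Per annotated kilobase it ranked 15 of 15 in replicate 1 and 11 of 15 in replicate 2.

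Ratios of replicate 2 over replicate 1 used expected counts scaled by TMM, a normalization that sets the bulk of genes at no difference. Over all genes averaging 50 counts or more, 5.2% were beyond 2-fold and higher in replicate 2, and 3.79% beyond 2-fold and lower. Of the 15 members that passed this count limit, 10 were higher and 1 was lower beyond 2-fold; the other 22 members, all tRNAs, had no counts there. The median log2 ratio was 2.27 over the 13 mRNAs, against -0.03 over all genes. With copies added to their members, 12 of 13 mRNAs were beyond 2-fold, and the median was 1.98.

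The mRNAs of complex I, the NADH dehydrogenase, spanned a wide range. The ratios with copies were 5.43-fold for mt-Nd2 (8925 and 46325 expected counts) and 4.82-fold for mt-Nd1 (19257 and 88670). For mt-Nd4l, mt-Nd4 and mt-Nd3 they were 4.42-fold, 3.93-fold and 3.85-fold. The long mt-Nd5 had 70318 and 136021, a ratio of 2.02 that lies at the 2-fold limit. Alone, without its copy, mt-Nd4l had a ratio of 1.92 in the gene tables, inside the limit, and 4.93 in the second tables. The ratios alone in the gene tables were 4.87 for mt-Nd4 and 5.74 for mt-Nd3.

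In complex III, mt-Cytb, which encodes cytochrome b, had 20987 and 96620 expected counts, a 4.82-fold ratio. The 3 cytochrome c oxidase subunits of complex IV stood at 2.56-fold for mt-Co1, 3.09-fold for mt-Co2 and 3.18-fold for mt-Co3, with copies. Alone, mt-Co2 had 2.68 and mt-Co3 had 1.92, so in the gene tables mt-Co3 was beyond 2-fold only with its copy. In the second tables mt-Co3 alone had a ratio of 2.19. The ATP synthase genes had the highest ratios with copies. Their ratios were 13.9-fold for mt-Atp8 and 5.87-fold for mt-Atp6 with its copy (5.88 alone), though the pair overlaps and its reads are uncertain. The effective length of mt-Atp8 also differed between libraries, at 19.5 and 27.7 bases. Its log2 ratio was 3.80 by counts and 2.94 by TPM, or 3.83 and 3.38 from the median of all genes. By complex, with copies, the 7 complex I genes held 42.9% and 41.1% of the counts of the 13 mRNAs, the 3 complex IV genes 48.5% and 43.2%, mt-Cytb 5.19% and 8.30%, and the ATP synthase genes 3.48% and 7.38%.

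The only minus-strand mRNA, mt-Nd6, was the mRNA that differed least. It encodes a membrane subunit of complex I and had 30280 and 38086 expected counts, a log2 ratio of 0.40. By the ratio of TPM it was -0.07, where the median of all genes is -0.44. Relative to the median of all genes, it was 0.43 by TMM and 0.37 by TPM. Its share of the counts of the 13 mRNAs alone, without copies, was 9.16% in replicate 1 (9.06 to 9.26) and 4.21% in replicate 2 (4.17 to 4.25). With copies added to the mRNAs, this share was 7.49% in replicate 1 and 3.27% in replicate 2. The 12 plus-strand mRNAs had ratios of 2.02 to 13.9 with copies. The use of strand in counting is not stated, so RNA from the opposite strand of mt-Nd6 cannot be told apart from its own. The last 14 bases of mt-Nd5 also overlap the end of mt-Nd6 on the other strand.

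Of the rRNAs, 1 was beyond 2-fold and lower in replicate 2, in the gene tables but not in the second tables. The small-subunit rRNA mt-Rnr1 had 6794 and 5285 expected counts, a log2 ratio of -0.30, and the large-subunit rRNA mt-Rnr2 had 8690 and 3761, at -1.14. Relative to the median of all genes, mt-Rnr1 was -0.26 by TMM and by TPM, and mt-Rnr2 was -1.11 by TMM and -1.08 by TPM. Within mRNA plus rRNA, without copies, the rRNAs held 4.47% (4.41 to 4.54) of expected counts in replicate 1 and 0.990% (0.970 to 1.01) in replicate 2. With copies added to the mRNAs, these shares were 3.69% and 0.771%. In the second tables, without copies, they were 6.71% and 1.61%. The part of rRNA depletion in the difference between libraries was not tested. The second tables gave higher counts, 9323 and 10173 for mt-Rnr1 and 19889 and 13307 for mt-Rnr2, with log2 ratios of -0.06 and -0.77.

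The second tables gave near the same ratios once copies were added. Over the 13 mRNAs, the largest gap between the log2 ratios of the tables was 1.65 for the members alone, at mt-Co2, and 0.27 with copies, at mt-Nd6. By the second tables mt-Co2 alone had a log2 ratio of -0.22, and with Gm28661 it had 1.70. Of 21 members averaging 50 estimated counts or more there, 15 were beyond 2-fold and higher in replicate 2 and 0 were beyond 2-fold and lower, against 5.34% and 3.96% of all genes.

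**Figure D3:**
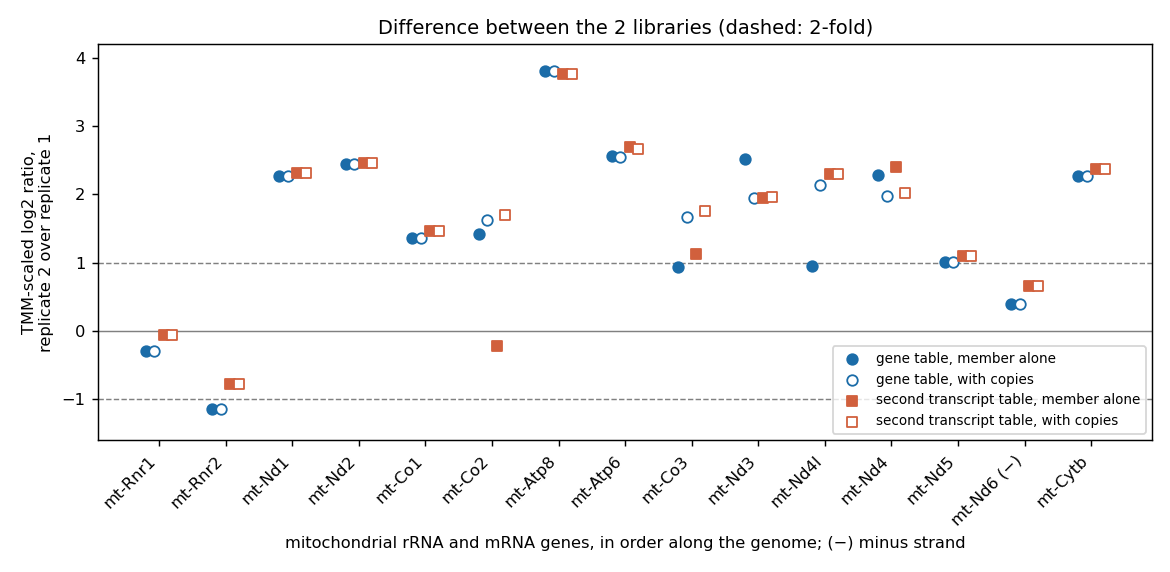
TMM-scaled log2 ratio of replicate 2 over replicate 1 for the 2 rRNAs and 13 mRNAs (circles: gene tables; squares: second transcript tables; filled: member alone; open: with nuclear copies; dashed lines: 2-fold). The open symbols of the tables lie within 0.27 of each other for each mRNA, the filled square of mt-Co2 lies at -0.22, and both rRNAs lie below 0.

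The 22 tRNA genes, 59 to 75 bases long, had a deposited effective length of 0 and 0 expected counts in both gene tables. An effective length of 0 leaves no place for a read, so these zeros say nothing about the tRNAs' abundance. The fragment size range in the labels is 250 to 400, longer than these genes. The second tables did place reads on them, 460 and 1889 estimated counts in all. There 20 of the 22 had a count in replicate 1 and 22 in replicate 2.

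Most of these reads lay on the 8 minus-strand tRNAs. They held 420 of 460 estimated counts in replicate 1, or 91.3% (88.4 to 93.5), and 1573 of 1889 in replicate 2, or 83.3% (81.5 to 84.9). The median was 35.5 and 182.5 on the minus strand, against 3 and 18.5 on the 14 plus-strand tRNAs. All 6 tRNAs averaging 50 estimated counts or more were minus-strand genes. Since the use of strand in counting is not stated, RNA from the opposite strand may be among these counts too. The highest plus-strand tRNA, mt-Th for histidine, had 6 and 66. The minus-strand genes mt-Tq, with 7 and 22, and mt-Ta, with 3 and 34, had fewer than mt-Th in replicate 2.

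Their sequences are printed for the 4 minus-strand tRNAs with the most estimated counts (GENCODE M21, mm10, minus strand), in lower case throughout since no part is singled out. They carry cysteine (mt-Tc, chrM:5192-5257), serine (mt-Ts1, chrM:6870-6938), proline (mt-Tp, chrM:15356-15422) and asparagine (mt-Tn, chrM:5089-5159). The last 3 bases of mt-Ts1 overlap the end of mt-Co1 on the other strand.
mt-Tc: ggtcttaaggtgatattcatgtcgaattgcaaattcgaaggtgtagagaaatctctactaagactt
mt-Ts1: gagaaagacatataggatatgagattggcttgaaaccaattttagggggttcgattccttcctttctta
mt-Tp: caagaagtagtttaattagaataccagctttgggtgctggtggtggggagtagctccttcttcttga
mt-Tn: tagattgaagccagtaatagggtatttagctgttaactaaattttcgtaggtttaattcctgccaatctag

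Among these tRNAs, mt-Tc had 48 and 420 estimated counts, mt-Tn 23 and 223, mt-Tp 59 and 259, and mt-Ty for tyrosine 6 and 142. Those 4 were beyond 2-fold and higher in replicate 2, with log2 ratios of 2.94, 3.09, 1.94 and 4.37. The glutamate tRNA mt-Te, which lies next to mt-Nd6 on the same strand, had 49 and 75, and mt-Ts1 had 225 and 398. Their log2 ratios of 0.42 and 0.63 were inside the limit, and mt-Nd6 had 0.66 in the same tables. The serine tRNA mt-Ts1 held 48.9% (44.4 to 53.5) of all tRNA counts in replicate 1 and 21.1% (19.3 to 23.0) in replicate 2.

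**Figure D4:**
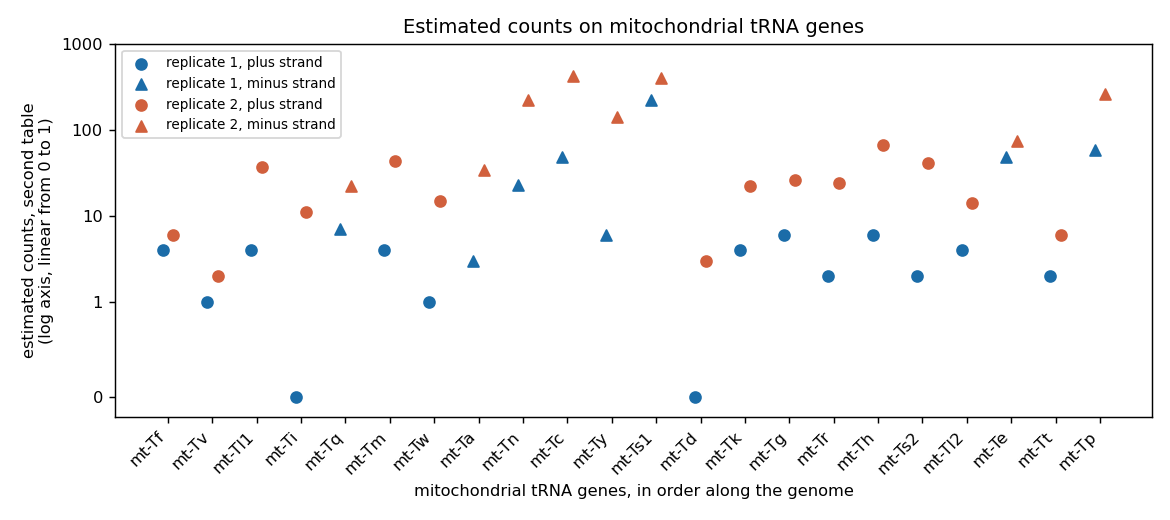
Estimated counts of the 22 mitochondrial tRNA genes in the second transcript tables, in order along the genome, on an axis that is linear from 0 to 1 and log above (circles: plus strand; triangles: minus strand; 1 point per library). The highest points are the minus-strand genes mt-Tc at 420 and mt-Ts1 at 398 in replicate 2.

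Base composition is given for mt-Nd6, the mRNA that differed least between libraries, and for mt-Co1. It is also given for mt-Nd5 and mt-Atp8, which had the lowest and highest plus-strand ratios with copies in the gene tables. The mRNA of mt-Nd6 held 28.1% G and 5.97% C, while mt-Co1 held 16.1% G and 23.8% C. For mt-Nd5 the values were 9.98% G and 27.1% C, and for mt-Atp8 5.88% G and 26.0% C. In 3 mRNA genes, mt-Co3, mt-Nd4 and mt-Cytb, the annotated length is not a multiple of 3 and the gene ends on the first letter of a stop codon, which polyadenylation completes in mitochondria. Their last 15 bases (plus strand, chrM:9376-9390, chrM:11530-11544 and chrM:15274-15288) show that letter in capitals.
mt-Co3 end: attgatgaggatctT
mt-Nd4 end: caggcctgacaataT
mt-Cytb end: taaaattatatccaT

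Nuclear genes that serve mitochondrial gene expression were counted in the same libraries. Of 16 genes for mitochondrial transcription and DNA maintenance, 7 were detected, 6 passed the count limit and 1 was beyond 2-fold, Polg2, an accessory subunit of the mitochondrial DNA polymerase, with 164 and 360 expected counts. The median log2 ratio was 0.14. Mterf3 stood at 22.4 ± 0.658 TPM (SD, n = 2), Polg, the polymerase itself, at 21.3 ± 6.91. Ssbp1, which binds single-stranded mitochondrial DNA, had 16.3 and 11.8 TPM. Mterf2 was lowest at 0.275 ± 0.0919 TPM.

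Of 20 genes for mitochondrial RNA processing and decay, 17 passed the count limit, 0 were beyond 2-fold and the median was 0.00. Fastk stood at 19.2 ± 3.52 TPM, Pnpt1, which encodes a ribonuclease, at 10.3 ± 3.54 and Mtpap, the mitochondrial poly(A) polymerase, at 10.1 ± 0.891. Trmt10c, a subunit of mitochondrial RNase P, was lowest at 0.745 ± 0.163 TPM. In nuclear-encoded respiratory chain genes, 4 of 22 that passed the limit were beyond 2-fold and higher, against 5.2% of all genes. They had low counts, near the limit: Ndufv2 44 and 106, Uqcrc2 53 and 107, Cycs 48.6 and 104, and Cox5b 49 and 97.0. The median log2 ratio of the list was 0.42. Atp5b, Cox4i1 and Sdha led this list at 39.9 ± 5.35, 37.5 ± 1.02 and 32.4 ± 0.354 TPM, and Ndufa9 was lowest at 2.43 ± 0.113.

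Cytosolic mRNAs were read beside the mitochondrial ones. All 13 cytosolic housekeeping mRNAs had a log2 ratio above 0, with a lowest value of 0.32 and a median of 0.52, and they took 0.389% and 0.612% of the expected counts. Gapdh, with 578 and 1312 expected counts, and B2m, with 2121 and 5744, were the 2 beyond 2-fold. B2m thus had a higher ratio than mt-Co1, mt-Nd5 and mt-Nd6, and mt-Nd6 lay below the median of this list. Ftl1, Fth1 and Actb led at 924 ± 60.1, 808 ± 61.6 and 742 ± 308 TPM, and Eno1 was lowest at 13.0 ± 2.83. Nuclear-retained RNAs had a median of -0.08 over 8 genes, of which Rn7sk and Rpph1 were beyond 2-fold and higher. By TPM these stood highest together with Rmrp, which had 93648 and 108490 expected counts, and Mir17hg was lowest at 1.89 ± 0.226 TPM. The macrophage genes had a median of 0.23 over 10, with Lyz2 beyond 2-fold. Lyz2, Apoe and Csf1r led them at 1880 ± 587, 728 ± 49.4 and 569 ± 41.5 TPM, and Fcgr1 was lowest at 24.8 ± 0.849. The part of cytoplasmic RNA in the mitochondrial difference was not tested.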

How the data were processed

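The data are ribosome-depleted total RNA-seq of 2 libraries in 1 group. Text notes deposited with each sample give mm10 and GENCODE M21, gene tables derived from an alignment, and second transcript tables derived from reads. Aligner and counter were not given in the sources used here, and neither was the use of strand. The authors' gene tables hold expected counts, TPM, posterior mean TPM and TPM bounds, per the file headers; the deposited second tables hold estimated counts and TPM. Counts of annotated genes summed to 15846212 and 14874879 (replicates 1 and 2). Spike-ins and numbered features, 1.19% and 0.213% of counts, stayed out.

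Estimated counts were summed per gene. TMM factors came from counts rounded to integers (edgeR 4.0.16, R 4.3.3); DESeq2 1.42.0 size factors, library size and TPM ratios were alternatives. Levels were ordered per annotated kilobase with copies added, in place of the planned TPM order; this was chosen after seeing the data. Calls needed a mean of at least 50 counts and a ratio beyond 2. Copies were a list of 9 pseudogenes, set before transcripts were aligned to the members (BLAST+ 2.17.0, 90% identity over 80% of length). Copies with a mean of at least 50 counts were named, as were all members and, per list, the 3 highest genes, the lowest and those beyond 2-fold; the last were chosen after their values were seen. Wilson intervals (scipy 1.17.1) cover counting error only. Members and lists were chosen with earlier results of these data known. The ratio code was tested on simulated data.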

Additional observations from a re-analysis of the deposited data

How the results depend on the processing

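No paired analysis was possible because there is 1 group. The second transcript tables detected 35 members in place of 15, since they count tRNAs, and moved the share of reads on nuclear copies from a mean of 19.8% to 10.1%. The median log2 ratio of the 13 mRNAs, 2.27, was 2.30 in the second tables, 2.29 by library size alone, 2.30 with DESeq2 size factors and 1.87 by the ratio of TPM. With copies added, chosen after seeing the data, it was 1.98 and, in the second tables, 2.02. The members beyond 2-fold were 11, 15 in the second tables, 13 with copies and 8 by the ratio of TPM. The ratio of TPM shifts the median of all genes to -0.44. Measured from that median, the members beyond 2-fold by TPM were 11, a count added after seeing the data. TMM, library size and DESeq2 size factors also gave 11, but they differ only by a constant. Their values from the median are therefore the same by construction. Without 1 replicate, the member share was 2.18% to 6.14% and the share on copies 17.6% to 22.1%. In the same setting, the mt-Nd6 share of mRNA counts, without copies, was 4.21% to 9.16%. The median TPM of the 13 mRNAs was then 1340 to 3931, and the detected members were 15. A ratio needs both libraries. For single genes, TPM moved by more than the SD of the libraries for 6 of 15 with copies added, for 8 of 15 in the second tables and for 4 of 15 by posterior mean TPM (mt-Co2 from 105 to 557, mt-Co3 from 243 to 1199.7, mt-Atp6 from 270.3 to 648 and mt-Nd6 from 5956 to 5605). The tRNA values under about 50 estimated counts are imprecise.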

Other observations

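Aligning every other annotated transcript to the members found 7 further nuclear copies at 90% identity or more over at least 80% of their length. In the gene tables they held 1 and 2 expected counts in all, and by the second tables they held 6.09 and 94.8 estimated counts. Among them, and named after their values were seen, Gm11407, Gm11408 and Gm11410 on chromosome 4 copy mt-Nd5, mt-Nd6 and mt-Cytb at 92.4%, 93.6% and 92.9% identity, and each had 0 expected counts in both libraries. The diverged copies of mt-Co1 and mt-Co2 on chromosome 2, Gm13340 and Gm13341, are 97.6% and 95.9% identical to the members.

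The RNA spike-ins, left out of the library sizes, held 191008 and 31781 expected counts in replicates 1 and 2. The amount added to each library was not used here, and its relation to the mitochondrial share was not tested.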
